A study of Mus musculus with 4 samples.

Results

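The collagen genes were described across the cell types of dispersed mouse pancreatic islets measured by single-cell RNA-seq. They are the 44 genes, of 32285 in the deposited matrix, whose symbol has the form of a collagen alpha chain gene. All 44 had at least 1 UMI (unique molecular identifier, a count of captured RNA molecules) in the cells kept here, and 41 had at least 10 UMIs in the 8 cell types compared. The islets came from mice aged 5 weeks, and the series title names NOD mice, a strain prone to autoimmune diabetes. Per the labels, 2 samples were Xbp1{beta}-/- mice, in which tamoxifen induced the loss of Xbp1 from beta cells, and 2 were Xbp1fl/fl mice, which carry the floxed allele and were also given tamoxifen. Xbp1 encodes a regulator of the unfolded protein response, and what drives the Cre recombinase is not given in the sources used. The cells of all samples share 1 matrix, whose barcodes end in a library number from 1 to 4. None of the sample labels equals such a number, so no collagen was compared between genotypes, no test between libraries was run, and the value of each library is given instead.

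Collagens are secreted proteins whose alpha chains wind into helical trimers, and chains of different genes often join in the same trimer. Fibril-forming collagens (types I, III and V) give tissue its tensile strength, type IV forms the sheet of basement membranes, type VI forms beaded filaments near cells, and other collagens decorate fibrils, bridge basement membranes to the matrix or stay in the cell membrane. In mouse islets, beta cells lie against a basement membrane of the capillaries, which endothelial cells largely lay down, and fibroblasts and Schwann cells occupy the islet edge. Per the labels' protocols, the islets were freed with collagenase and protease, picked by hand, kept in culture overnight and dispersed, so the recovered cells are those that came through these steps.

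Cell types were gated by marker genes that include no collagen, and each class is named here after the list that gated it. A cell of a non-endocrine class had UMIs of at least 4 of 12 markers and led the next list by at least 2 markers. It also drew under 10% of its UMIs from hormone genes. Endocrine classes were set by the share of UMIs from insulin, glucagon or somatostatin. Their cells also needed under 4 markers of each non-endocrine list other than the ductal and plasma cell lists. This gave 291 fibroblasts, 108 pericytes, 54 Schwann cells, 495 endothelial cells, 1012 ductal cells, 1820 alpha cells, 1125 delta cells and 6417 beta cells among 16146 kept cells. Each class held its own markers: a level of 20 CPM (counts per 1e+06 UMIs of the class) was reached by 12 of 12 fibroblast, 11 of 12 pericyte, 11 of 12 Schwann, 12 of 12 endothelial and 12 of 12 ductal markers in the class they gated. The 9 fibroblast markers Dcn, Lum, Pdgfra, Dpt, Pi16, Igfbp6, Clec3b, Mfap4 and Cygb had 0 UMIs in Schwann cells, which reached 20 CPM for 2 of 12 fibroblast markers. Pericytes lacked Lum, Clec3b and Mfap4 and reached 20 CPM for 4 of 12 fibroblast markers. Pericyte markers were also found outside pericytes. They reached 20 CPM for 6 of 12 in fibroblasts (summed 1975 CPM) and 2 of 12 in Schwann cells (summed 1244 CPM). Macrophage markers summed to 3930 CPM in Schwann cells, above the 1909 CPM of the Schwann list, with 2 of 12 at 20 CPM or more. C1qb, C1qc, Adgre1, Csf1r, Mrc1, Fcgr1 and Ms4a7 had 0 UMIs there. The part of these markers in the Schwann results was not tested.

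The libraries held these cells in unlike numbers. Libraries 1 and 3 had 136 and 143 fibroblasts, 642 and 332 ductal cells and 498 and 654 beta cells, while libraries 2 and 4 had 6 and 6 fibroblasts, 24 and 14 ductal cells and 3127 and 2138 beta cells. Pericytes numbered 33, 19, 33 and 23, Schwann cells 9, 12, 21 and 12, and endothelial cells 147, 112, 157 and 79 in libraries 1, 2, 3 and 4, the order in which all values by library are given here. Median UMIs per cell were 31605 in fibroblasts, 9418.5 in pericytes, 16508.5 in Schwann cells, 9421 in endothelial cells, 14662.5 in ductal cells, 11798.5 in alpha cells, 17107 in delta cells and 40535 in beta cells. Values of a class with under 20 cells in a library are printed and enter pooled levels and the leading class, but not the counts of genes past the 4-fold rule. Intervals are exact, at the 95% level, and cover counting error only. The kept cells had 28 barcode sequences in more than 1 library, of 16118 distinct ones. A further 2076 kept cells passed no gate.

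Collagen RNA was concentrated in the 4 stromal and vascular classes. All collagens together took 8608, 11036, 11239 and 5713 CPM in fibroblasts, 4854, 3842, 5151 and 3600.3 CPM in Schwann cells, 3966, 5217, 4356 and 5252 CPM in endothelial cells and 2705, 4149, 5692 and 3264 CPM in pericytes. Ductal cells had 252, 445, 277 and 225 CPM, and beta cells 92.4, 40.9, 94.6 and 34.2 CPM. Each of the 4 stromal and vascular classes was above ductal and beta cells in every library. With each cell thinned to 5000 UMIs, a fibroblast had UMIs of a median of 11 different collagens (lowest 1, highest 18), a Schwann cell 9, a pericyte 6 and an endothelial cell 4.

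**Figure D1:**
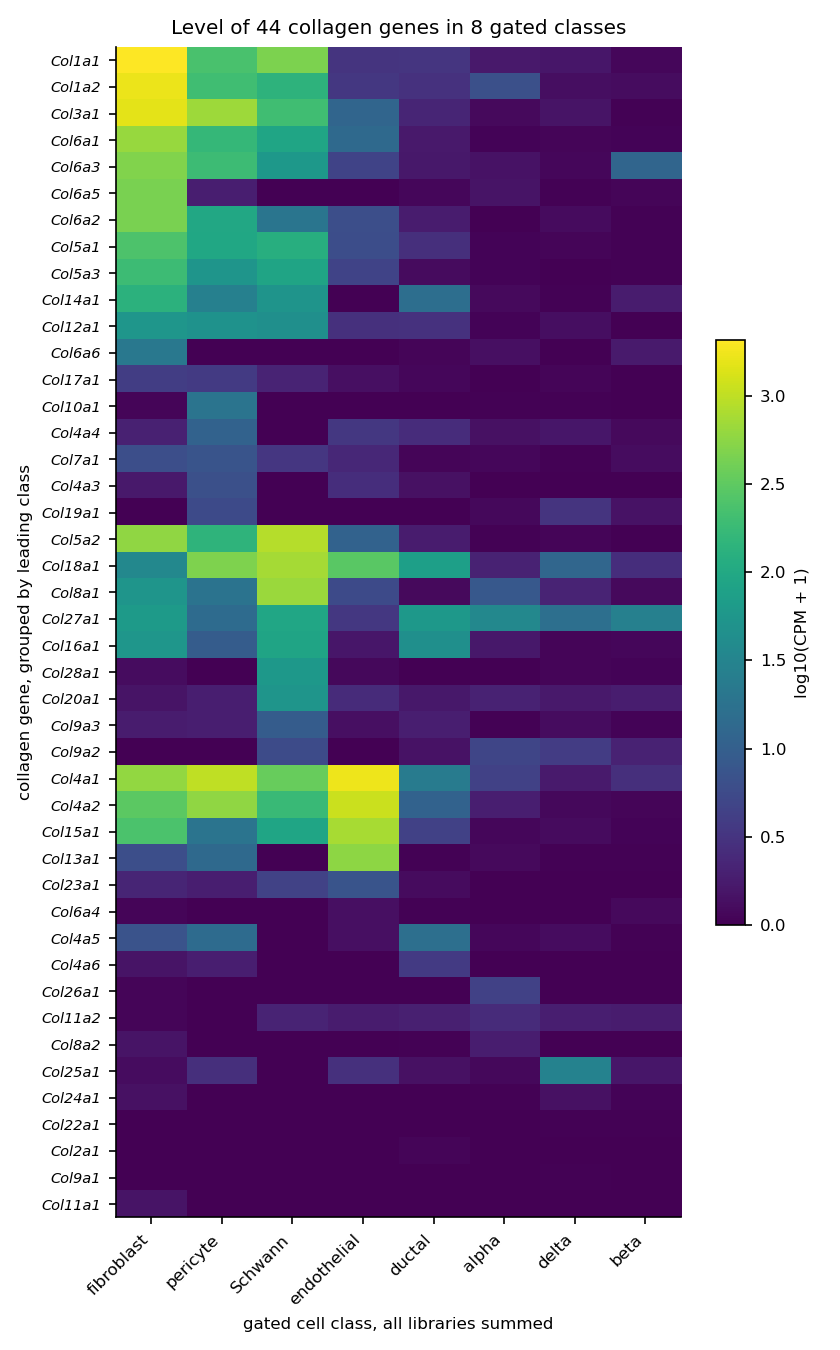
Levels of the 44 collagens (rows, grouped by leading class) in 8 gated cell types (columns), with all libraries summed and colour showing log10(CPM + 1). Fibroblasts carry most fibrillar and type VI chains, endothelial cells lead for Col4a1, Col4a2, Col13a1 and Col15a1, Schwann cells lead for Col5a2, Col8a1 and Col18a1, and the beta column stays low except for Col27a1 and Col6a3.

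Ranked by the class with the highest pooled level, 13 collagens were led by fibroblasts, 9 by Schwann cells, 6 by endothelial cells, 5 by pericytes, 3 by alpha cells, 3 by delta cells, 2 by ductal cells and 0 by beta cells. Of the 44, 22 reached 50 CPM in a class of at least 50 cells, 9 peaked between 5 and 50 CPM and 13 stayed under 5 CPM. Among those 22, fibroblasts led for 11, Schwann cells for 7 and endothelial cells for 4. Some other leads rest on few UMIs, because the minimum count applied to the sum over the compared classes, not the leader. Col22a1 led in delta cells on 1 UMI (0.0477 CPM, against 0.0404 CPM in beta cells). Col6a4 led in endothelial cells on 2 UMIs from 1 cell (0.385 CPM), below its 3.50 CPM in a class outside this ranking. Col9a2 led in Schwann cells on 4 UMIs, and Col10a1 in pericytes on 20 UMIs, 19 of them in 1 cell.

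Each class was then set against beta cells, the most numerous class, with a collagen counted as higher where log2((CPM + 10) / (CPM in beta cells + 10)) was at least 2, a 4-fold difference, in every library with at least 20 cells of both classes. Fibroblasts exceeded beta cells for 17 of 34 collagens with at least 10 UMIs, against 4.08% of all genes, over libraries 1 and 3. Schwann cells did so for 17 of 28, against 4.9% of all genes, over library 3 alone. Pericytes did so for 10 of 32 (all genes 2.59%, libraries 1, 3 and 4) and endothelial cells for 5 of 37 (all genes 3.58%, all 4 libraries). Ductal cells did so for 2 of 36 (all genes 2.08%, libraries 1 to 3), alpha cells for 0 of 34 (all genes 0.397%) and delta cells for 0 of 35 (all genes 0.433%). The shares in the 4 stromal and vascular classes were above those of all genes, whereas the counts in ductal, alpha and delta cells were 2, 0 and 0 genes. The median log2 ratio of the collagens was 2.78 in Schwann cells (all genes -0.05), 2.14 in fibroblasts (0.00), 1.03 in pericytes (-0.01), 0.11 in endothelial cells (0.07), 0.07 in ductal cells (0.05), 0.01 in alpha cells (0.11) and 0.00 in delta cells (0.15). No collagen was 4-fold lower than in beta cells in any of these classes (0 of the numbers tested), where 2.28% of all genes were lower in fibroblasts, 2.84% in Schwann cells, 1.25% in pericytes, 0.936% in endothelial cells, 0.442% in ductal cells, 0.228% in alpha cells and 0.199% in delta cells. With 10 CPM added to both sides, a gene low in beta cells cannot be called lower. Of the collagens only Col27a1 was high enough there, and only in libraries 1 and 3. It could therefore be called lower only in fibroblasts and Schwann cells, whose comparisons used no other library. For Col27a1 in the other classes, and for all other collagens, this 0 was fixed beforehand and is not a result about them. In the same way, a collagen low in alpha or delta cells cannot be called higher.

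RNA of type I collagen, the main fibril of connective tissue, was highest in fibroblasts over all libraries together. Schwann cells came next for Col1a1 and pericytes for Col1a2. Col1a1 (chr11:94936224-94953042, GRCm38, plus strand) had 1734, 2261, 2429.7 and 673 CPM in fibroblasts, 449, 396, 539.9 and 372 CPM in Schwann cells and at most 0.518 CPM in beta cells of any library. It was detected in 45 of 54 Schwann cells. In pericytes Col1a1 had 102, 48.3, 484 and 0 CPM and was found in 24 of 108 cells, and 1 cell held 26 of the 41 UMIs in library 1 and another 68 of the 206 UMIs in library 3. The summed fibroblast markers were 1885, 642, 2194 and 506 CPM in the same pericytes, so Col1a1 was higher in the pericytes of the libraries where those markers were higher, and their part in the result was not tested. The fibroblast markers summed to 62.3, 35.1, 81.4 and 24.4 CPM in Schwann cells, where Col1a1 was at or above 372 CPM in every library.

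Col1a2 (chr6:4504814-4541544, plus strand), the partner chain of Col1a1 in the type I trimer, had 1495, 2503, 1861 and 146 CPM in fibroblasts and 125, 155, 159.9 and 97.6 CPM in Schwann cells, where it was lower in every library. Over all libraries together, pericytes came next after fibroblasts, at 199 CPM of Col1a2. Their 220 UMIs came from 33 of 108 cells, and 1 cell held 102 of them. The UMI ratio of Col1a2 to Col1a1 was 0.307 in Schwann cells (0.248 to 0.377) and 0.811 in fibroblasts (0.795 to 0.828), and by library it was 0.278, 0.392, 0.296 and 0.262 in Schwann cells. The Schwann cells thus carried fewer Col1a2 UMIs per Col1a1 UMI than fibroblasts, pericytes having 0.866 (0.720 to 1.04). Alpha cells had the opposite balance, with 126 Col1a2 UMIs and 16 Col1a1 UMIs, a ratio of 7.88 (4.66 to 14.2), at levels of only 5.68, 5.26, 6.69 and 5.28 CPM for Col1a2. The 170 cells gated by pancreatic polypeptide, a further endocrine class, also held Col1a2. Relative to non-hormone UMIs they had 23.9, 13.5, 7.32 and 5.16 CPM, from 7, 10, 3 and 3 UMIs. Alpha cells had 7.74, 7.56, 9.74 and 7.39 CPM on that scale. After thinning, 1.98, 2.88, 2.52 and 2.89% of alpha cells had a Col1a2 UMI, against 0.0968% of beta cells and 0.620% of B cells, which should lack it. Unthinned, these were 6.58, 5.76, 8.37 and 5.83% of alpha cells, 1.12% of beta cells and 1.08% of B cells, and thinning left out 132 alpha cells, 219 beta cells and 720 B cells that were shallower. A same-strand predicted gene, Gm43921, overlaps Col1a2 in the annotation.

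Col3a1 (chr1:45311538-45349706, plus strand), the fibrillar collagen of distensible tissue, had 1192, 1969, 1869.7 and 673 CPM in fibroblasts. Pericytes had 388, 152, 1304 and 181 CPM of Col3a1, Schwann cells 81.0, 100.3, 386 and 73.2 CPM, and beta cells at most 0.194 CPM. Its log2 ratio to beta cells was 6.90 and 7.53 in fibroblasts of libraries 1 and 3 and 5.30, 7.01 and 4.26 in pericytes of libraries 1, 3 and 4. The fibroblast markers of the pericytes (1885, 642, 2194 and 506 CPM) were higher where their Col3a1 was higher, except that library 4 was above library 2 for Col3a1 and below it for the markers, and their part in the pericyte level was not tested. Fibroblasts were above pericytes in each library, with library 3 holding the highest Col3a1 of the pericytes and of the Schwann cells. The promoter windows of Col1a2 and Col3a1 are shown because both chains peak in fibroblasts while their start regions differ in the plain motifs searched. Each runs from 250 bases before to 50 bases after the RefSeq start (GRCm38.p6), 5′ to 3′ on the strand of the gene, and capitals mark a match on either strand to the letters CCAAT, to the letters GGGCGG of the GC-rich box bound by Sp factors, or to the letters TATAAA of the start-site box.
Col1a2 (chr6:4505368-4505667, plus strand): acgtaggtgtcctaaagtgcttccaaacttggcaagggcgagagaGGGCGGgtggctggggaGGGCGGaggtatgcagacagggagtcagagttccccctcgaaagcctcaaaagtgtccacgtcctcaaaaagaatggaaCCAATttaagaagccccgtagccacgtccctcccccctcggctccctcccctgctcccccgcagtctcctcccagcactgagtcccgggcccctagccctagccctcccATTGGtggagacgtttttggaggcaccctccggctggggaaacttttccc
Col3a1 (chr1:45311288-45311587, plus strand): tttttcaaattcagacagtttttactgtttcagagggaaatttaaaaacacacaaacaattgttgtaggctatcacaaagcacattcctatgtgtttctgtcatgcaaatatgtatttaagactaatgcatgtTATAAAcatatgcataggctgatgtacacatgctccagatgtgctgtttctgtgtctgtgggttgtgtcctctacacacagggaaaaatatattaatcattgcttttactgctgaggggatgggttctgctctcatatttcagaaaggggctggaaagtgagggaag
The Col1a2 window holds matches to CCAAT and to GGGCGG only, and the Col3a1 window holds a match to TATAAA only. Over 32851 RefSeq promoter windows, 37.4% held CCAAT, while 35.7% held GGGCGG and 13.6% held TATAAA, and over 38 windows of 35 collagens the shares were 34.2%, 60.5% and 13.2% in that order.

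Type V collagen sits inside type I fibrils and limits their width. Col5a1 (chr2:27886425-28039514, plus strand) had 226, 399, 256 and 200.1 CPM in fibroblasts, 125, 140.4, 133 and 54.9 CPM in Schwann cells, 59.6, 131, 127 and 45.3 CPM in pericytes and at most 0.162 CPM in beta cells. Col5a2 (chr1:45374321-45503282, minus strand) was higher in Schwann cells, with 1134, 777, 905 and 744 CPM, than in fibroblasts, with 514, 534, 645 and 237 CPM, in each library. It lies tail to tail with Col3a1, 24614 bases apart with no protein-coding gene between, yet Col3a1 was led by fibroblasts and Col5a2 by Schwann cells. The ratio of Col5a1 to Col5a2 UMIs was 0.133 in Schwann cells (0.107 to 0.164), 0.423 in fibroblasts (0.403 to 0.444) and 0.648 in pericytes (0.501 to 0.835). Col5a3 (chr9:20770050-20815067, minus strand), the rarer chain, had 185, 426, 184 and 146 CPM in fibroblasts, 93.5, 100.3, 72.4 and 91.5 CPM in Schwann cells and at most 0.0870 CPM in beta cells. All 3 type V chains passed the 4-fold rule against beta cells in fibroblasts, pericytes and Schwann cells.

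**Figure D2:**
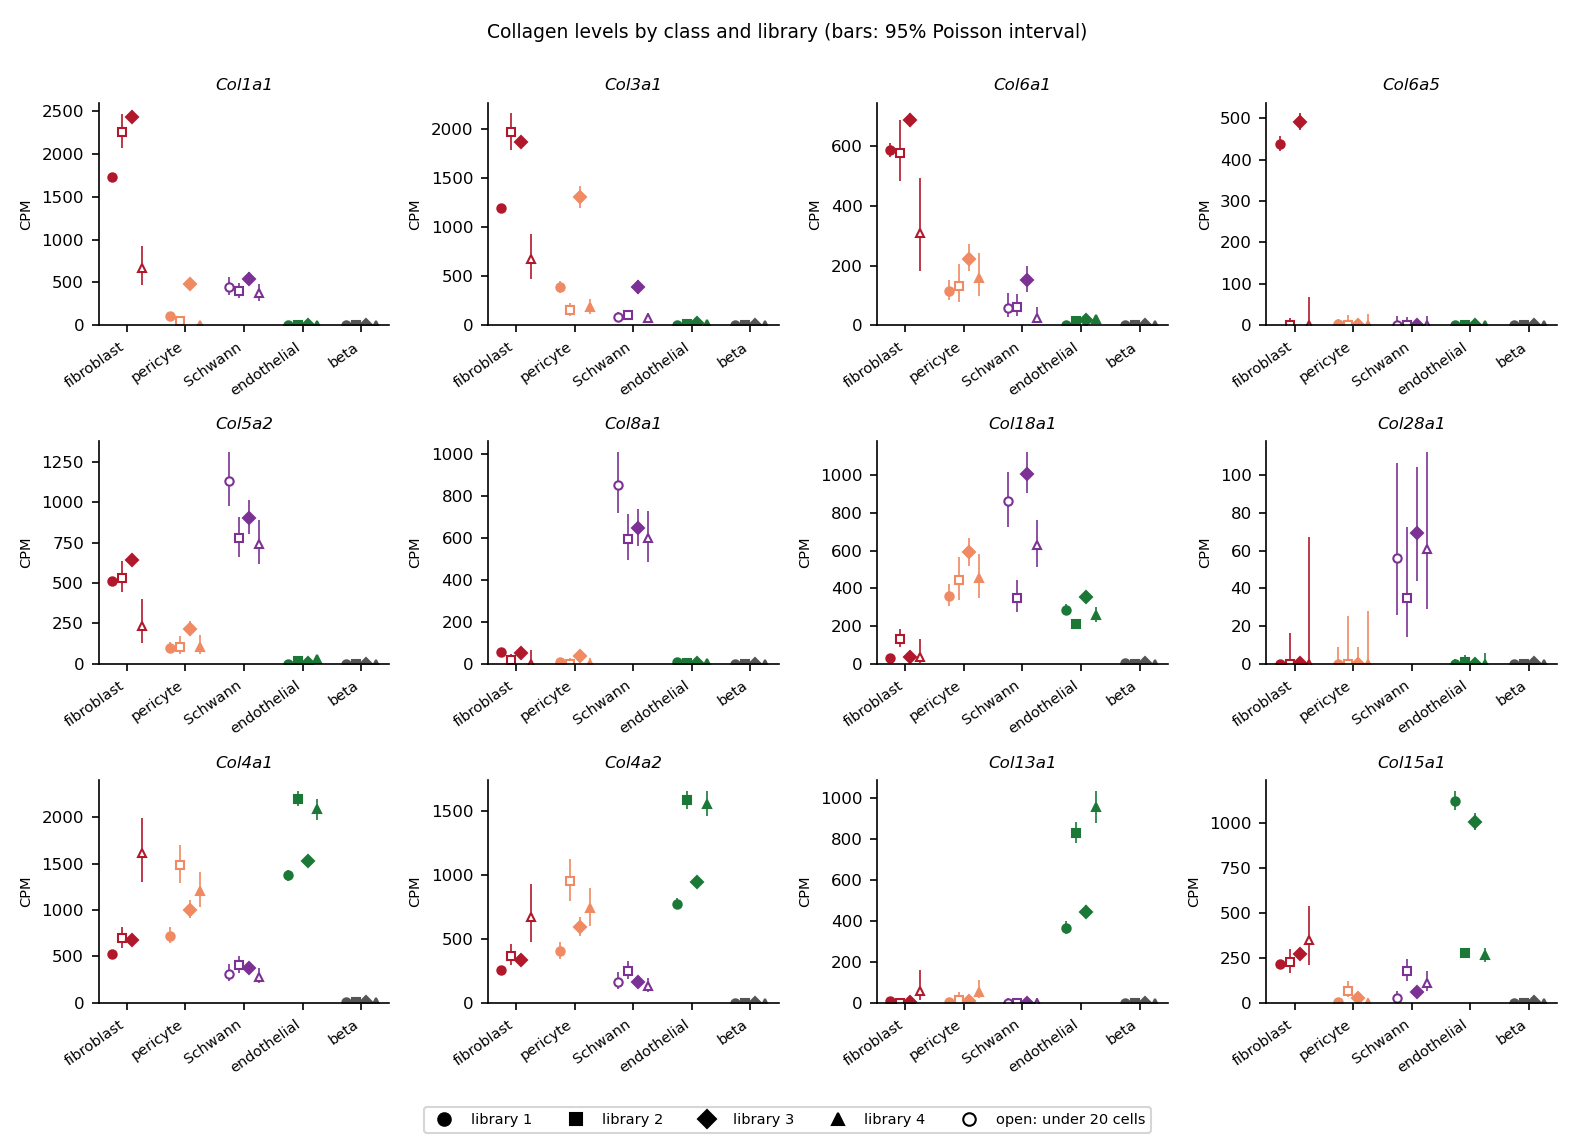
Levels (CPM) of 12 collagens in fibroblasts, pericytes, Schwann cells, endothelial cells and beta cells, with 1 point per library, open where the library has under 20 cells of the class, and bars for 95% Poisson intervals. Col1a1 and Col6a5 are highest in fibroblasts, Col5a2, Col8a1 and Col28a1 in Schwann cells and Col13a1 in endothelial cells, and in endothelial cells Col15a1 is high in libraries 1 and 3 while Col13a1 is high in libraries 2 and 4.

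Of the chains of type VI collagen, the beaded filament around cells, RNA of Col6a1, Col6a2, Col6a3 and Col6a5 was highest in fibroblasts over all libraries together. Col6a1 (chr10:76708792-76726168, minus strand) had 588, 579, 687 and 309 CPM in fibroblasts, 114, 131, 223 and 159 CPM in pericytes, 56.1, 60.2, 151 and 24.4 CPM in Schwann cells and at most 0.259 CPM in beta cells. Col6a2 (chr10:76595762-76623630, minus strand), which neighbours it on the same strand, had 405, 319, 501 and 91.0 CPM in fibroblasts and 6.23, 15.05, 30.2 and 12.2 CPM in Schwann cells. The fibroblast values were above the Schwann values in every library for both genes. Per Col6a1 UMI, Col6a2 had 0.213 UMIs in Schwann cells (0.116 to 0.369) and 0.707 in fibroblasts (0.680 to 0.735), so Schwann cells were short of Col6a2 relative to Col6a1. Against beta cells Col6a2 had a log2 ratio of 1.98 in Schwann cells of library 3, just under the threshold of 2, and Col12a1 one of 2.00, just at it.

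Col6a3 (chr1:90765923-90843971, minus strand), the long chain of type VI whose end is cut off as endotrophin, had 415, 404, 573 and 346 CPM in fibroblasts, 122, 138, 305 and 52.9 CPM in pericytes and 81.0, 15.05, 78.4 and 48.8 CPM in Schwann cells. Beta cells also held Col6a3, at 14.5, 11.7, 18.1 and 6.52 CPM, whereas alpha cells had at most 0.935 CPM and delta cells at most 0.379 CPM in any library. That beta level came with hardly any Col6a1: 3021 Col6a3 UMIs stood against 18 Col6a1 UMIs, a ratio of 168 (106 to 284), compared with 0.776 (0.747 to 0.805) in fibroblasts. The fibroblast marker list summed to 1.503 CPM in beta cells, whose gate left out cells with 4 or more of these markers. That sum was therefore kept low in part by the gate. After thinning to 5000 UMIs, 5.33, 5.89, 7.01 and 2.69% of beta cells had a Col6a3 UMI (25.5, 27.0, 33.0 and 15.3% unthinned), against 0.826% of B cells, which should lack it (0.581% unthinned), and 0 of 1688 alpha cells, which at this thinning allows up to 0.178% of alpha cells with a UMI (0.495% unthinned). Beta cells had a median of 40535 UMIs and B cells 4459, and nearly all the thinned B cells were from libraries 1 and 3. In pericytes Col6a3 missed the 4-fold rule, with log2 ratios to beta cells of 2.43, 3.49 and 1.93.

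Col6a5 (chr9:105856078-105960643, minus strand), one of the chains that can take the place of Col6a3, had 439 CPM in fibroblasts of library 1 and 492 CPM in those of library 3. It had 0 UMIs in the 6 fibroblasts of library 2 and in the 6 of library 4, where a count of 0 allows up to 13.5 and 54.6 CPM. It was found in 182 of 291 fibroblasts and had 1 UMI in pericytes and 0 in Schwann and endothelial cells. The fibroblast values of libraries 1 and 3 were above these counting limits. The limits do not cover the spread between cells, so with 6 fibroblasts each, libraries 2 and 4 cannot settle whether the libraries differ. After thinning, 60 of 127 fibroblasts of library 1 had UMIs of both Col6a5 and Col1a1, 3 of Col6a5 only, 55 of Col1a1 only and 9 of neither. Library 3 had 66, 3, 65 and 4 of 138 fibroblasts in those groups, so about as many fibroblasts had Col1a1 UMIs without a Col6a5 UMI as with one. Over single fibroblasts of libraries 1 (n = 136) and 3 (n = 143), Spearman's rho was 0.76 and 0.71 between Col1a1 and Col3a1, 0.31 and 0.20 between Col1a1 and Col6a5, and 0.44 and 0.58 between Col6a1 and Col6a5. These are descriptions over cells that share a library and differ in depth. Col6a6 (next to Col6a5 on chromosome 9) had 21.6, 4.49, 19.9 and 18.2 CPM in fibroblasts, against at most 1.04 CPM in beta cells.

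Col12a1, Col14a1 and Col16a1, which decorate fibrils, were each found in several classes. Col12a1 (chr9:79598991-79718831, minus strand), a fibril-associated collagen with interrupted helices, had 43.3, 35.9, 65.7 and 0 CPM in fibroblasts, 54.6, 41.4, 30.5 and 98.2 CPM in pericytes and 56.1, 80.2, 30.2 and 18.3 CPM in Schwann cells. These 3 ranges overlapped, and beta cells had at most 0.0870 CPM. Col14a1 (chr15:55307750-55520803, plus strand), of the same family, had 136, 67.3, 137 and 54.6 CPM in fibroblasts, 87.2, 30.1, 66.4 and 12.2 CPM in Schwann cells and 14.97, 0, 15.2 and 0 CPM in ductal cells. Fibroblasts were above Schwann cells for Col14a1 in each library, and endothelial cells had 0 UMIs of it. Col16a1 (chr4:130047840-130099283, plus strand), also fibril-associated, had 81.0, 65.2, 103 and 85.4 CPM in Schwann cells, 45.8, 44.9, 62.7 and 0 CPM in fibroblasts and 45.8, 49.4, 41.6 and 16.1 CPM in ductal cells, against at most 0.356 CPM in beta cells. Ductal and fibroblast values of Col16a1 overlapped. Pericytes had 8.14 CPM of it over all libraries.

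Type IV collagen, the network of basement membranes, passed the 4-fold rule against beta cells in fibroblasts, pericytes, Schwann cells and endothelial cells, and was highest in endothelial cells. Col4a1 (chr8:11198423-11312826, minus strand) had 1372, 2201, 1526 and 2086 CPM in endothelial cells, 723, 1484, 1003 and 1209 CPM in pericytes, 526, 695, 670.1 and 1619 CPM in fibroblasts and 312, 406, 371 and 281 CPM in Schwann cells. Ductal cells had 19.6, 105, 24.8 and 42.8 CPM, and beta cells 2.74, 1.78, 2.88 and 1.18 CPM. Endothelial cells led in all 4 libraries, and after thinning 93.97, 100, 92.5 and 100% of them had a Col4a1 UMI (93.9, 100, 94.3 and 98.7% unthinned), against 0.413% of B cells. Col4a2 (chr8:11312805-11449287, plus strand), whose chain joins Col4a1 in the common type IV trimer, had 775, 1590.4, 944 and 1561 CPM in endothelial cells, 405, 953, 594 and 741 CPM in pericytes and at most 0.162 CPM in beta cells. The order endothelial cells, pericytes, Schwann cells held for Col4a1 and for Col4a2 in each library.

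The log2 ratio of endothelial to beta cells was 6.76, 7.55, 6.90 and 7.55 for Col4a1 and 6.28, 7.30, 6.55 and 7.28 for Col4a2. The ratio of Col4a2 to Col4a1 UMIs was 0.657 in endothelial cells (0.636 to 0.679), 0.597 in pericytes (0.541 to 0.658), 0.497 in Schwann cells (0.405 to 0.606) and 0.494 in fibroblasts (0.472 to 0.516). By library it was 0.565, 0.722, 0.619 and 0.748 in endothelial cells, higher in libraries 2 and 4, as were Col4a1 and Col4a2 themselves. The pericyte markers in these endothelial cells summed to 75.0, 982, 234 and 799.5 CPM, and their part in the difference between libraries was not tested. Beta cells had 33 Col4a2 UMIs to 491 Col4a1 UMIs, a ratio of 0.0672 (0.0457 to 0.0957), so their few type IV UMIs were almost all Col4a1. The 2 genes start head to head, and their annotated spans overlap by 22 bases. Both promoter windows are shown because both genes were highest in endothelial cells, then in pericytes, over all libraries together, in the same format and with the same motifs in capitals as above.
Col4a1 (chr8:11312777-11313076, minus strand): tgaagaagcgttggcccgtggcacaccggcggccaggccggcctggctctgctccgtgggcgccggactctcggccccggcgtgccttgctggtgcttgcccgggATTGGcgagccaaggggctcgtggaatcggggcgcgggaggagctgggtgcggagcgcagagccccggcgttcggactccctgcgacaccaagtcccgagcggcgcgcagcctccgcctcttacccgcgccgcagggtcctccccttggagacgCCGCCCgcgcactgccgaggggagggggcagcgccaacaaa
Col4a2 (chr8:11312555-11312854, plus strand): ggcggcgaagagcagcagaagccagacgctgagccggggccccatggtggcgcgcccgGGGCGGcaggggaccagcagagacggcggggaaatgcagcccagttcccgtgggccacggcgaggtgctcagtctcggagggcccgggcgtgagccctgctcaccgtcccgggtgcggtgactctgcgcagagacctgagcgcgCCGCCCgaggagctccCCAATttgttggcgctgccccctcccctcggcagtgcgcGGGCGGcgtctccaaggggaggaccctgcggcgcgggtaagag
The windows share 78 bases (chr8:11312777-11312854), read on opposite strands. Each holds CCAAT and at least 1 match to GGGCGG.

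**Figure D3:**
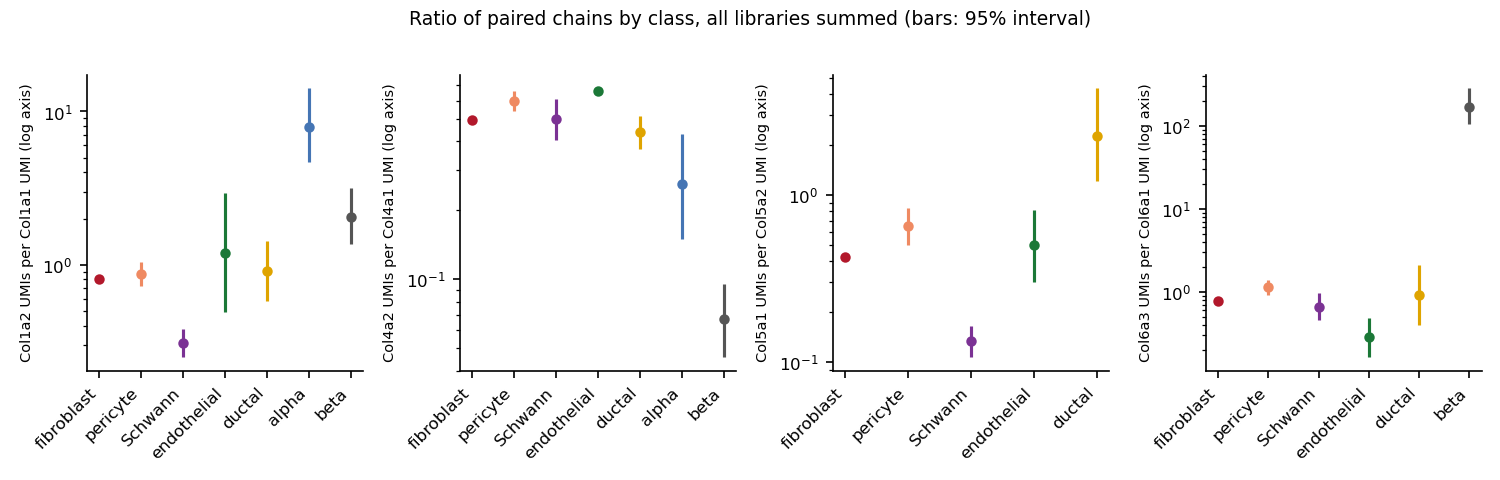
Ratios of UMIs between partner chains (log axis) by cell type, pooled over libraries, with 95% counting intervals. Schwann cells sit below fibroblasts for Col1a2 over Col1a1 (0.307 and 0.811) and Col5a1 over Col5a2 (0.133 and 0.423), and beta cells stand at 168 for Col6a3 over Col6a1.

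The other type IV chains were rare. Col4a5 (chrX:141475385-141689234, plus strand) was found in ductal cells and pericytes, with 14.8, 43.6, 15.2 and 10.7 CPM in ductal cells, 9.94, 0, 25.8 and 0 CPM in pericytes and at most 0.0971 CPM in beta cells, and its head-to-head neighbour Col4a6 also peaked in ductal cells, at 2.70 CPM. Col4a3 and Col4a4, which start 71 bases apart on chromosome 1 and whose chains form the trimer of mature kidney basement membrane with Col4a5, peaked at 5.43 and 9.95 CPM, in pericytes.

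The 2 multiplexins, collagens that bridge basement membranes to the matrix beneath, split between cell types. Col18a1 (chr10:77052178-77166548, minus strand), whose end is released as endostatin, had 859.9, 351, 1007 and 629 CPM in Schwann cells, 360.2, 442, 589.6 and 453 CPM in pericytes and 287, 209, 356 and 259.6 CPM in endothelial cells. Ductal cells had 68.5, 143, 81.3 and 69.6 CPM, fibroblasts 30.6, 130.1, 33.8 and 36.4 CPM, delta cells 10.2, 12.3, 9.92 and 12.8 CPM and beta cells 3.17, 1.36, 3.43 and 1.29 CPM. Schwann cells were above pericytes in libraries 1, 3 and 4 and below them in library 2, and pericytes were above endothelial cells in every library. Delta cells were above beta cells in each library. With 10 CPM added to both sides, their 9.92 to 12.8 CPM could not pass the 4-fold rule whatever the beta level, so missing it does not mean a small difference. In fibroblasts Col18a1 was the nearest collagen under the threshold, with log2 ratios to beta cells of 1.62 and 1.71, and Col12a1 (2.40 and 2.92) and Col16a1 (2.43 and 2.81) were the nearest above it. Slc19a1, on the other strand, overlaps Col18a1 in the annotation.

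Col15a1 (chr4:47208161-47313167, plus strand), the other multiplexin, had 1125, 274, 1007 and 263 CPM in endothelial cells, 212, 224, 270.3 and 346 CPM in fibroblasts, 24.9, 176, 57.3 and 109.8 CPM in Schwann cells, 2.48, 62.1, 23.5 and 0 CPM in pericytes and at most 0.259 CPM in beta cells. Endothelial cells of libraries 1 and 3 stood about 4-fold above those of libraries 2 and 4 for Col15a1. Col13a1 (chr10:61838236-61979108, minus strand), a collagen that spans the cell membrane, went the other way, with 364, 828, 443 and 953 CPM in endothelial cells of libraries 1, 2, 3 and 4. Outside endothelial cells it reached 13.8 CPM or less except for 52.9 CPM in pericytes (7 UMIs) and 54.6 CPM in fibroblasts (3 UMIs) of library 4, and Schwann cells had 0 UMIs. The log2 ratio of endothelial to beta cells was 5.22, 6.38, 5.50 and 6.58 for Col13a1 and 6.81, 4.82, 6.63 and 4.77 for Col15a1.

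UMIs of both genes were found together in endothelial cells of all libraries. After thinning, both Col13a1 and Col15a1 were found in 49 of 116, 51 of 93, 60 of 133 and 36 of 61 endothelial cells. B cells, which should lack both genes, had a UMI of Col13a1 in 0.207% and of Col15a1 in 0.620% of cells, nearly all of them from libraries 1 and 3. Endothelial cells with only Col15a1 numbered 45, 9, 41 and 2, and cells with only Col13a1 numbered 5, 29, 3 and 18. Thus the cells with UMIs of only Col15a1 outnumbered those with only Col13a1 in libraries 1 and 3, and the reverse held in libraries 2 and 4. The median depth of endothelial cells was 9659, 9252, 11167 and 7020 UMIs, and their summed fibroblast markers were 145, 102, 147 and 86.5 CPM, so these markers were higher where Col15a1 was higher. Pdgfra, Dpt and Mfap4 had 0 UMIs in endothelial cells. The pericyte markers summed to 75.0, 982, 234 and 799.5 CPM and the beta markers to 1344, 19891, 1880 and 11035 CPM in the same cells, both higher in libraries 2 and 4, where Col13a1 was higher, with 6 of 12 pericyte markers at 20 CPM or more and none at 0 UMIs. The part of these markers in the results was not tested. Against pericytes, the other cells of the vessel wall, endothelial cells were 4-fold higher for 2 of 25 collagens (all genes 2.15%), Col13a1 and Col15a1, and 4-fold lower for 3 (all genes 0.703%), Col3a1, Col6a1 and Col6a3, over libraries 1, 3 and 4.

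Schwann cells, the glia of peripheral nerve, had a set of collagens that fibroblasts carried little of. Col8a1 (chr16:57624258-57754737, minus strand), a short-chain collagen that forms hexagonal networks, had 854, 597, 645 and 598 CPM in Schwann cells, 57.6, 17.9, 51.1 and 0 CPM in fibroblasts and 9.94, 0, 35.2 and 0 CPM in pericytes. After thinning, 88.2% of Schwann cells had a Col8a1 UMI (92.6% unthinned). Col20a1 (chr2:180986535-181018363, plus strand), a rarely studied fibril-associated collagen, had 68.5, 20.1, 45.2 and 91.5 CPM in Schwann cells, from 24 of 54 cells, and at most 0.974 CPM in beta cells. Col28a1 (chr6:7997808-8192617, minus strand), known in mice from the basement membranes around Schwann cells, had 56.1, 35.1, 69.4 and 61.0 CPM in Schwann cells, from 30 of 54 cells, 0 UMIs in pericytes and alpha cells and at most 0.194 CPM in beta cells. For all 3 genes every library's Schwann value was above the fibroblast and beta values.

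Set against fibroblasts in library 3, Schwann cells were 4-fold higher for 4 of 26 collagens (all genes 2.03%), with log2 ratios of 4.54 for Col18a1, 3.42 for Col8a1, 2.90 for Col28a1 and 2.41 for Col20a1. They were 4-fold lower for 8 (all genes 2.54%), which were Col1a1, Col1a2, Col3a1, Col6a1, Col6a2, Col6a3, Col6a5 and Col15a1, down to -5.65 for Col6a5 and -3.46 for Col1a2. Only library 3 had 20 Schwann cells, so these counts rest on its 21 cells. Pericytes against fibroblasts, in libraries 1 and 3, were higher for 1 of 27 collagens (all genes 0.785%), Col18a1 at 3.19 and 3.78, and lower for 4 (all genes 0.793%), Col1a1, Col1a2, Col6a5 and Col15a1. For pericytes Col1a1 stood at -3.96 and -2.30 and Col15a1 at -4.15 and -3.07. Col18a1 was therefore higher than in fibroblasts both in Schwann cells and in pericytes.

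In the endocrine cells, which make the islet hormones, Col27a1 was found in alpha, delta and beta cells of every library. Col27a1 (chr4:63214004-63334991, plus strand), a fibril-forming collagen known from cartilage, had 112, 70.2, 109 and 61.0 CPM in Schwann cells, 63.2, 35.9, 63.3 and 91.0 CPM in fibroblasts, 55.7, 55.3, 61.3 and 42.8 CPM in ductal cells, 39.0, 36.9, 35.5 and 28.9 CPM in alpha cells, 13.3, 18.7, 7.87 and 20.1 CPM in delta cells and 59.6, 19.7, 56.8 and 18.6 CPM in beta cells. Endothelial cells had at most 4.07 CPM. Beta cells of libraries 1 and 3 were thus about 3-fold above those of libraries 2 and 4, while alpha cells stayed between 28.9 and 39.0 CPM and delta cells were lower in libraries 1 and 3. Hormone genes took 39.5, 57.3, 39.0 and 56.2% of beta-cell UMIs. Relative to non-hormone UMIs only, Col27a1 had 103, 47.0, 97.1 and 43.0 CPM in beta cells, 53.2, 53.1, 51.7 and 40.5 CPM in alpha cells and 17.6, 25.9, 10.6 and 28.1 CPM in delta cells, and libraries 1 and 3 stayed above libraries 2 and 4 in beta cells. In the same beta cells the alpha markers summed to 2925, 783, 2719 and 486 CPM, the pericyte markers to 1055, 209, 975 and 249 CPM and the fibroblast markers to 3.78, 1.03, 4.24 and 0.621 CPM, all higher in libraries 1 and 3, and their part in the Col27a1 difference was not tested. These sums rest on few genes: over all libraries 3 of 11 alpha, 1 of 12 pericyte and 0 of 12 fibroblast markers reached 20 CPM in beta cells. After thinning, 22.2, 9.75, 22.8 and 9.09% of beta cells and 16.8, 15.97, 13.9 and 11.3% of alpha cells had a Col27a1 UMI, against 1.65% of B cells and 1.53% of macrophages. Unthinned, the shares were 63.3, 44.2, 60.9 and 37.8% of beta cells and 27.6, 32.3, 27.8 and 22.3% of alpha cells.

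Col25a1 (chr3:130131501-130599877, plus strand), a membrane-spanning collagen known from neurons, was highest in delta cells in every library, with 54.6, 13.6, 46.9 and 12.7 CPM in delta cells and 0.739, 0.566, 0.453 and 0.560 CPM in beta cells. With 10 CPM added to both sides, its log2 ratio of delta to beta cells was 2.59, 1.16, 2.44 and 1.10. It passed the 4-fold rule in libraries 1 and 3. At 13.6 and 12.7 CPM it could not pass in libraries 2 and 4, so the ratios there do not mean a small difference. Leaving out hormone genes gave 72.5, 19.0, 62.9 and 17.7 CPM of Col25a1 in delta cells, a similar gap between libraries. The fibroblast markers summed to 36.4, 22.7, 42.8 and 24.8 CPM in delta cells, with 1 of 12 at 20 CPM or more over all libraries, and their part in the gap was not tested. After thinning, 18.1, 7.26, 19.4 and 5.33% of delta cells had a Col25a1 UMI (44.4, 19.5, 47.7 and 12.8% unthinned), against 0.290% of beta cells (2.09% unthinned) and 0 of 484 B cells, which at this thinning allows up to 0.620% of B cells with a UMI (0% unthinned). Alpha cells had at most 0.872 CPM, and delta cells against alpha cells gave 0 of 20 collagens past the 4-fold rule in either direction (all genes 0.457% higher and 0.444% lower). With the pseudocount of 10 CPM, no collagen was high enough in every library of either class to be called. That 0 therefore does not mean that the levels were alike. Col8a1 was also found in alpha cells, at 18.8, 4.91, 9.88 and 4.27 CPM, against 1.90, 0.910, 1.73 and 0.372 CPM in delta cells and at most 0.435 CPM in beta cells. Col26a1, a small secreted collagen-like gene, had 4.97, 3.86, 2.91 and 2.64 CPM in alpha cells, 0 UMIs in delta cells and 1 UMI in beta cells of each of libraries 2 and 3.

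**Figure D4:**
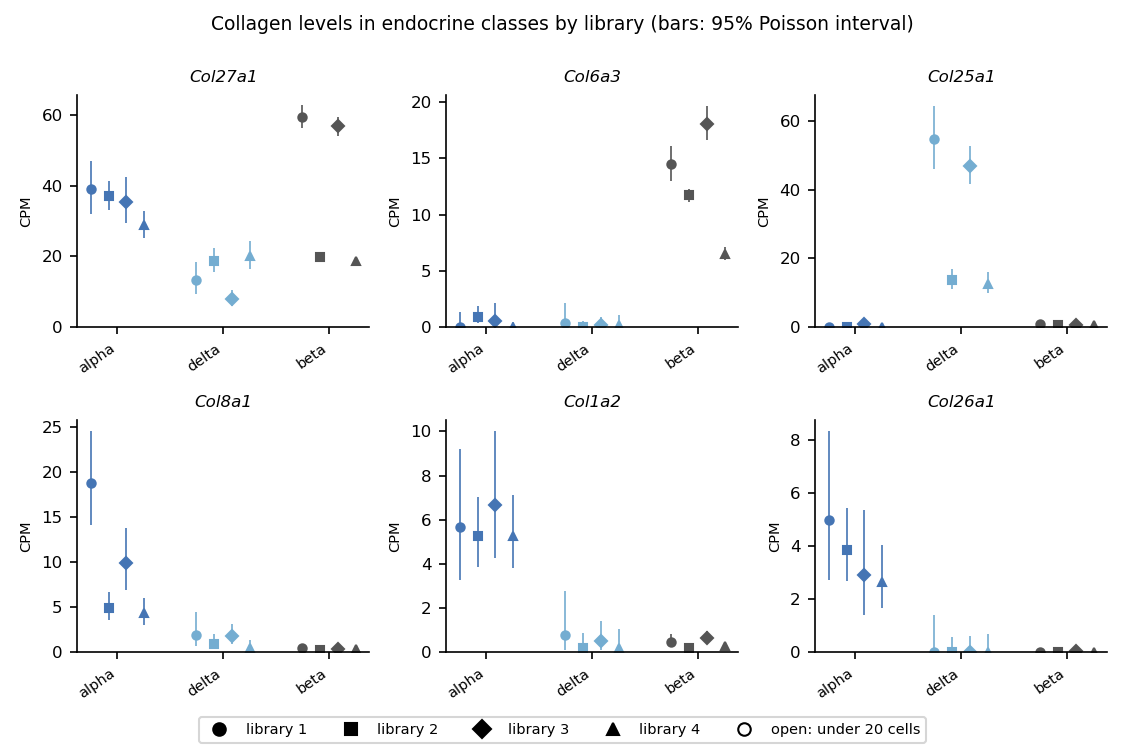
Levels (CPM) of 6 collagens in alpha, delta and beta cells, with 1 point per library and bars for 95% Poisson intervals. Col25a1 in delta cells and Col27a1 in beta cells have their highest values in libraries 1 and 3, and Col6a3 is seen in beta cells at 6.52 to 18.1 CPM.

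Ductal cells, the lining of the exocrine ducts, carried few collagens. The 2 that passed the rule against beta cells were Col18a1 and Col16a1, given above, and Col4a5 and Col27a1 were the others at 10 CPM or more in every library of ductal cells besides Col4a1. Of the low members, Col23a1, another membrane-spanning collagen, had 28 UMIs (18.7 CPM) in endothelial cells of library 1, from 10 cells, and at most 2.16 CPM in those of the other libraries. Col10a1, the collagen of growth-plate cartilage, had 20 UMIs in pericytes, 19 of them in 1 cell of library 2, and the gene Nt5dc1 on the other strand overlaps it. Col2a1, Col9a1 and Col11a1, which are cartilage collagens, had under 10 UMIs over the 8 classes.

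The share of UMIs of all collagens that each class contributed depended on its cell number. Fibroblasts held 59.4, 12.3, 63.6 and 3.43% of these UMIs among kept cells, endothelial cells 8.75, 32.1, 9.28 and 35.8%, and beta cells 3.14, 27.8, 3.37 and 30.7%. Pooled, these were 53.5, 12.9 and 7.31%, and the pooled beta share was 4.80% without library 2. Fibroblasts were the largest source in libraries 1 and 3, and endothelial and beta cells in libraries 2 and 4, where 6 fibroblasts were caught. Pericytes held 1.61, 3.01, 2.79 and 4.72%, Schwann cells 1.15, 3.83, 1.97 and 6.45% and ductal cells 4.90, 0.766, 2.12 and 0.459%, with a pooled ductal share of 2.92% that was 1.76% without library 1. Cells that passed no gate held 18.8, 15.2, 15.3 and 10.1%.

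For single genes the source moved with the cells recovered. Beta cells held 11.5, 85.3, 13.5 and 86.6% of Col6a3 UMIs, and fibroblasts 66.8, 4.82, 68.2 and 3.07%. For Col27a1 the beta share was 39.5, 75.1, 47.1 and 71.2%. In contrast, endothelial cells held 79.3, 80.0, 95.01 and 94.7% of Col13a1 UMIs in every library. Schwann cells, 54 cells in all, held 5.52, 40.5, 7.20 and 68.5% of Col5a2 UMIs.

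**Figure D5:**
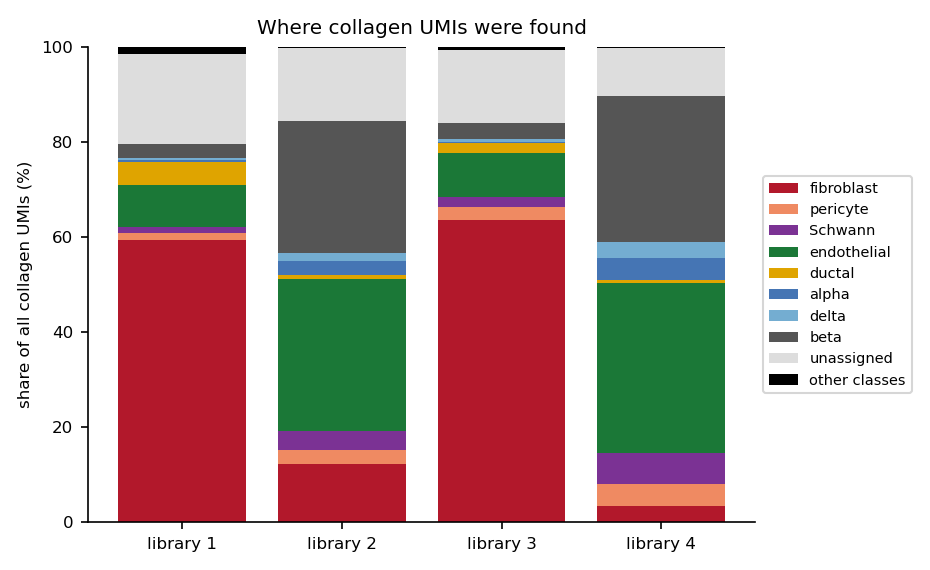
Share of UMIs of all collagens in kept cells (percent, stacked to 100) by cell type in each library, with ungated cells in light grey. Fibroblasts give most collagen UMIs in libraries 1 and 3 (59.4 and 63.6%), and endothelial and beta cells give most in libraries 2 and 4.

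Genes that fold, process, bind and break down collagen were read from 5 lists, under the same 4-fold rule against beta cells. In fibroblasts 8 of 20 folding and hydroxylation genes, 12 of 17 processing and crosslinking genes, 5 of 16 receptors, 6 of 17 basement membrane partners and 8 of 15 breakdown genes were higher, against 4.08% of all genes. Dcn and Lum in the processing list are also fibroblast gate markers, and Cspg4 in the receptor list is a pericyte gate marker, so the gate fixed their direction in those classes. Endothelial cells had 7 of 16 basement membrane partners higher (Lama4, Lamb1, Lamc1, Nid1, Nid2, Hspg2 and Pxdn), with 3 of 20, 2 of 14, 2 of 15 and 1 of 13 in the other 4 lists in the same order, against 3.58% of all genes. Schwann cells had 5 of 18, 5 of 10, 6 of 13, 7 of 11 and 5 of 11 higher, against 4.9% of all genes. Pericytes had 2 of 19, 3 of 13, 4 of 15, 4 of 14 and 3 of 14 (all genes 2.59%), and ductal cells 2 of 20, 1 of 14, 3 of 15, 1 of 13 and 3 of 15 (all genes 2.08%). Alpha cells had 0 in every list, and delta cells had Timp1 alone (all genes 0.397 and 0.433%). Of 16 receptors, 1 (Adgrg1) was 4-fold lower in fibroblasts than in beta cells, where 2.28% of all genes were lower.

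Serpinh1, the chaperone of procollagen (HSP47), had 1064, 1427, 1228 and 982.5 CPM in fibroblasts, against 7.92, 2.79, 6.99 and 2.79 CPM in beta cells. Mia3, which helps load procollagen into transport carriers, was instead high in beta cells, at 194, 197, 215 and 185 CPM, with 98.7 CPM in fibroblasts over all libraries. Sparc, a collagen-binding matrix protein, had 2554, 3771, 3085 and 3567 CPM in endothelial cells and 0.426 CPM in beta cells. Of the laminin chains, which form the other network of basement membranes, Lamb1 had 412, 505, 387 and 511 CPM in endothelial cells, and the linker Nid1 had 237, 607, 239.5 and 556 CPM there, higher in libraries 2 and 4, where the pericyte markers were also higher (75.0, 982, 234 and 799.5 CPM) in the same endothelial cells. Of the receptors, the integrin chain Itga1, which binds type IV collagen, had 183, 307, 258 and 266 CPM in endothelial cells, and Ddr2, a kinase receptor for fibrillar collagen, had 206, 82.9, 148 and 68.0 CPM in pericytes. Their levels in beta cells were 0.173 and 0.0956 CPM. Timp1, an inhibitor of matrix metalloproteinases, had 5916, 3203, 3784 and 2638 CPM in fibroblasts, and Timp3, another inhibitor, had 1832, 1620.0, 1098 and 1538 CPM in Schwann cells.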

How the data were processed

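Single-cell RNA-seq counts of dispersed mouse islet cells were used as deposited. The authors' counting tool was Cell Ranger 6.1.2, per the file headers and per the submitters' processing notes, which give mm10 as the build. The gene annotation and the chemistry are not given in the sources used here. The deposited counts hold 66890401 entries, all whole numbers, over 32285 genes and 19987 barcodes of 4 libraries, which none of the sample labels identifies. Whether a sample is 1 mouse is not stated in the labels. Library totals were 82963911, 178396311, 85266513 and 110800927 UMIs, and the cell filter (at least 500 genes, at most 20% mitochondrial UMIs) removed 12.0, 29.7, 13.8 and 13.1% of barcodes.

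Cells were gated as given above. A beta cell drew at least 10% of UMIs from Ins1 and Ins2 and under 2% from each of Gcg, Sst and Ppy, and an alpha or delta cell drew at least 5% from its hormone and under 5% from insulin. A pancreatic polypeptide cell drew at least 5% from Ppy, under 5% each from insulin and Gcg and under 2% from Sst. No doublet caller was run. The lead of 2 markers and the hormone limit stand in for it, and 1 alternative lowered the limit to 1%. For each class in each library, UMIs were added up and scaled by the UMIs of that class (CPM). Ratios used a pseudocount of 10 CPM, genes with at least 10 UMIs over both classes and libraries with at least 20 cells of both. Intervals are exact Poisson or Clopper-Pearson at the 95% level, and a count of 0 allows up to 3 counts. Where the annotation shows an overlapping gene, UMIs of the gene and the member may be mixed. The step that calls ratios was tested on simulated data for endothelial against beta cells over 15736 genes: of 100 genes raised 8-fold it called 100, of 100 lowered 8-fold it called 77, and of the unchanged ones 0. Both simulated classes were drawn from the endothelial profile with no spread between cells, and only genes of at least 50 CPM were changed. The result therefore does not cover collagens at lower levels.

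Positions come from GENCODE M21 (GRCm38, the same assembly as mm10) and promoters from RefSeq (GRCm38.p6), and all 44 members were found in the annotation. Members, marker lists and partner lists were chosen with earlier results of these data known. Values by library are printed for members with at least 50 CPM in a class of at least 50 cells, of which there were 22, and others that are given, such as Col25a1, were named after their values were seen. From each partner list, up to 4 genes with the largest level among those 4-fold above beta cells and the gene highest in beta cells were eligible. Alternatives were a stricter cell filter (1000 genes, 10% mitochondrial UMIs), 1 more marker per gate, Leiden clusters made without collagens (2000 genes, 30 components, 15 neighbours, resolution 2), hormone genes left out, CPM averaged over cells, a smaller pseudocount (1 CPM), a 2-fold threshold, no filter on low counts, no thinning and leaving out each library. Python 3.11.15, numpy 2.4.6, scipy 1.17.1, pandas 2.3.3, scikit-learn 1.9.0, igraph 0.11.9 and matplotlib 3.10.9 were used.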

Additional observations from a re-analysis of the deposited data

Results flagged for a closer look

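Collagen RNA was also present in barcodes outside the gated classes, above the limit that a count of 0 allows. Barcodes removed by the cell filter had 274, 109, 298 and 95.7 collagen CPM in libraries 1, 2, 3 and 4. Kept cells that passed no gate had 736, 158, 721 and 78.2 collagen CPM. In both sets libraries 1 and 3, which hold most fibroblasts, were above libraries 2 and 4. Among the ungated cells, 151 that reached 4 markers of a class without the lead of 2 held 9.40% of all collagen UMIs, and 38 of them with at least 4 fibroblast markers held 16061 of their 17259 collagen UMIs. A further 1653 with a hormone share of 10% or more held 6.63%. Of these, 19 with at least 4 fibroblast markers, which the endocrine gates left out, held 5000 of their 12167 collagen UMIs.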

How the results depend on the processing

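The counts of collagens above beta cells in fibroblasts, Schwann cells, pericytes and endothelial cells stayed within 1.5 times of those reported under every alternative run. In ductal cells the count was 4 at 2-fold and 5 with a pseudocount of 1 (reported 2), in alpha cells 2 with a pseudocount of 1 (reported 0), and in delta cells 1 at 2-fold and 1 with a pseudocount of 1 (reported 0). Beta cells led for 2 collagens with hormone genes left out and for 1 by the mean of each cell's CPM (reported 0). Delta cells led for 1 by that mean (reported 3). Ductal cells led for 1 by that mean and for 1 without cells over 1% hormone UMIs, and for 1 to 2 as libraries were left out in turn (reported 2). Shares of collagen UMIs with clusters in place of gates were 64.9% in fibroblasts, 14.3% in endothelial, 7.89% in beta, 3.02% in ductal, 2.66% in Schwann cells and 2.69% in pericytes. Without cells over 1% hormone UMIs they were 52.7% in fibroblasts, 8.97% in endothelial, 2.69% in ductal and 1.58% in Schwann cells and 1.94% in pericytes. The stricter cell filter gave 53.7% in fibroblasts, and 1 more marker gave 2.02% in Schwann cells. Leaving out each library gave 44.4 to 58.5% in fibroblasts, 10.55 to 16.1% in endothelial, 4.80 to 10.8% in beta, 1.76 to 3.63% in ductal and 1.86 to 2.64% in Schwann cells, and 2.19 to 2.98% in pericytes. The cause of these changes was not tested beyond what leaving out cells or hormone counts does by construction. Of 290 levels of named genes under other settings, 104 moved beyond the counting interval and 5 by over 1.5 times: Col14a1 in fibroblasts (214 CPM by the mean of cells), Col20a1 in Schwann cells (81.9 CPM by that mean) and, in beta cells without hormone genes, Col27a1 (59.1 CPM), Col6a3 (24.3 CPM) and Col4a1 (3.96 CPM). No paired analysis was possible because no library is tied to a sample label. The 6 fibroblasts in each of libraries 2 and 4 and the 9 to 21 Schwann cells per library limit what can be read of those classes.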
